A study of Homo sapiens with 12 samples.

Results

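The transcriptomes of HepG2 cells kept in Plasmax, a culture medium composed to resemble human plasma, were compared with those of HepG2 cells kept in low-glucose DMEM (LGDMEM), a standard basal medium. HepG2 is a human hepatocellular carcinoma line that retains many functions of hepatocytes, and all cells were wild type. The comparison used 6 of the 12 libraries of the series, LGDMEM 1 to 3 and Plasmax 1 to 3, and all 10945 rows of the count table that carry a gene symbol, of 11546 rows. The other 6 libraries, from EMEM and from high-glucose DMEM (HGDMEM), entered the fit to estimate the spread and are otherwise given only as reference levels. Every group shared its history. Cells were maintained and plated in EMEM, were switched to the test medium after 24 h, received fresh medium at 48 h and were collected 96 h after the switch, with 10% heat-inactivated fetal bovine serum present in each medium. The cells are a single cancer line, so they stand for hepatocytes only as far as that line does. Poly(A) RNA was read from its 3′ end, so that levels, in counts scaled to library size (CPM), need no correction for transcript length.

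Cells adjust sterol, sugar, amino acid and iron genes to what the medium supplies through a few sensors. SREBP2 raises the genes of cholesterol synthesis and uptake when membranes of the endoplasmic reticulum hold little sterol, MondoA and ChREBP raise TXNIP and ARRDC4 when glucose phosphates accumulate, and ATF4 raises amino acid synthesis, import and tRNA charging when amino acids are short or the reticulum is stressed. HIF raises glycolytic genes, carbonic anhydrase and erythropoietin when oxygen or iron at its hydroxylases is short, and the unfolded protein response raises chaperones of the reticulum.

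Counts on rows with a symbol summed to 3995365, 5028068 and 4574565 in LGDMEM 1 to 3 and to 4880499, 5290642 and 4744080 in Plasmax 1 to 3. That is not the full depth, because rows without a symbol were left out and rows with few counts were missing from the table. The labels do not state whether the 3 libraries of a medium came from separate cultures, and p-values therefore describe the spread among these libraries, which could be technical. In a principal component analysis of the 6 libraries the first component held 48.4% of the variance and separated the media. The second held 16.5% and separated the LGDMEM libraries from each other, at 28.5, 9.07 and −44.8, while the Plasmax libraries lay between −1.64 and 7.04. Hepatocyte markers were present in every library, with 17 of 20 measured and a summed level of 23096 to 27013 CPM in LGDMEM and 16051 to 17800 CPM in Plasmax. Of leukocyte markers 3 of 10 were measured, CD14, CD68 and LYZ, with sums of 2122 to 2885 CPM in LGDMEM and 1966 to 2194 CPM in Plasmax, and of endothelial and stromal markers 3 of 11, with 34.2 to 57.2 CPM and 69.4 to 94.9 CPM.

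In Plasmax 16 of 19 measured genes of cholesterol synthesis, 10 of 15 of fatty acid synthesis, 21 of 24 of mitosis, 20 of 24 of DNA replication, 12 of 21 chaperones of the endoplasmic reticulum and 9 of 20 of glycolysis were lower than in LGDMEM. TXNIP, 8 of 24 p53 targets and the growth factor AREG were higher. In all 2321 of 10945 genes passed the test, which was 21.2% of the genes tested. Differences were tested gene by gene with edgeR (quasi-likelihood test), p-values were adjusted by Benjamini and Hochberg's method over all 10945 genes, and a gene is said to rise, fall or be called where its adjusted p was under 0.05. Of these 1038 were higher in Plasmax (9.48%) and 1283 were lower (11.7%), with a median log2 fold change over all genes of 0.0015. A change of at least 2-fold was seen in 390 of the higher and 553 of the lower genes. Log2 fold changes are Plasmax over LGDMEM throughout, so that a negative value is a lower level in Plasmax.

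Which genes were called depended on the libraries of both media. No gene called with all libraries was called in the opposite direction in any of the settings tried. Among genes not called with all libraries 9 were called in one direction in some settings and in the other in others, including CES1, DEPP1, GDF15, IGFBP1 and WARS, named for this after their values were seen. Each differed in direction between 2 fits with a single LGDMEM library. Without LGDMEM 1, 2 or 3 the number of calls was 1724 (15.8% of genes tested), 1959 (17.9%) or 2265 (20.7%), and 1612, 1797 and 1936 of the 2321 genes were among them. A total of 1338 genes, 57.6% of those called, kept their call and direction in all 3 of these fits. Without Plasmax 1, 2 or 3 the number of calls was 1840, 1791 or 1666, with 577, 632 and 748 of the 2321 lost, against 709, 524 and 385 lost without LGDMEM 1, 2 or 3. Genes that kept their call without each Plasmax library numbered 1284, or 55.3%. Genes called that the fit to all libraries did not call numbered 112, 162 or 329 without LGDMEM 1, 2 or 3. They numbered 93 to 102 without a Plasmax library.

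**Figure D1:**
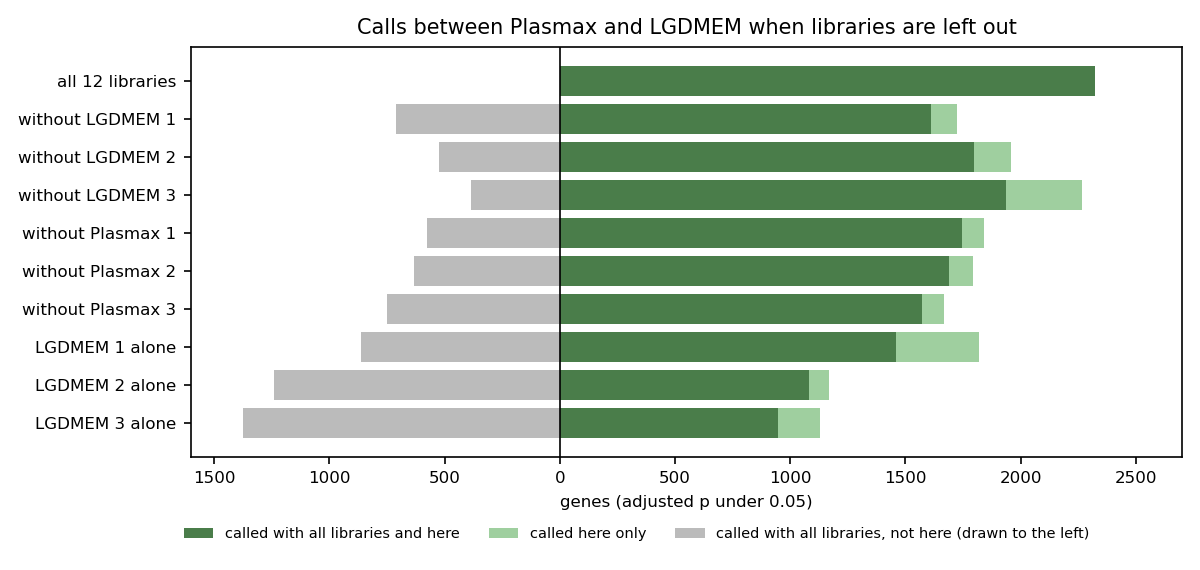
Genes called between Plasmax and LGDMEM (adjusted p under 0.05, x axis in genes) with all 12 libraries, with each of the 6 compared libraries left out, and with a single LGDMEM library as the reference, with dark green for genes also called in the full fit, light green for genes gained and grey, drawn to the left, for genes lost. The fit without LGDMEM 3 lost the fewest genes, 385, and gained 329, and the fit with LGDMEM 3 alone shared the fewest, 947.

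The plot of calls with libraries left out also shows the fits with a single LGDMEM library as the reference, in which the lone library was assumed to vary like the other media. LGDMEM 1 alone gave 1821 calls, LGDMEM 2 alone 1167 and LGDMEM 3 alone 1131. Called genes that kept their call against each of the 3 numbered 501, or 21.6%, of which 176 were higher and 325 lower in Plasmax. Of 943 called genes with at least a 2-fold change 656 (69.6%) kept their call without each LGDMEM library in turn, and of 1378 smaller changes 682 (49.5%) did.

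TXNIP, an inhibitor of glucose uptake and of thioredoxin that glucose induces, had the largest rise among genes of at least 10 CPM. Its level was 282, 282 and 330.3 CPM in the Plasmax libraries and 1.01, 5.5 and 4.53 CPM in the LGDMEM libraries. All Plasmax values lay far above all LGDMEM values, with LGDMEM 1 the lowest. The log2 fold change was 6.28 (SE 0.39, adjusted p = 9.22e-09), and it ranged from 5.88 to 6.69 without a LGDMEM library. In EMEM the gene stood at 57.04, 20.3 and 34.1 CPM and in HGDMEM at 43.9, 30.1 and 51.2 CPM, between the media compared. Its relative ARRDC4, an arrestin-like protein induced by the same sensor, had no read in any LGDMEM library and 39, 26 and 50 reads in Plasmax. Taking 3 counts over all LGDMEM libraries as the most that a zero allows, which covers counting error only, it was at least 34.5-fold higher in Plasmax. The carbohydrate response element, a pair of CACGNG boxes 5 bases apart (letters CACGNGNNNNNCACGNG, both strands), is the site that MondoA and ChREBP bind, and TXNIP was the only 1 of 11 promoters from its list to hold it. Among tested genes 0.173% of 8672 promoters held it, and 0.0732% of all 27305 promoters of 300 bases. The stretch is shown because TXNIP had the largest rise among genes of at least 10 CPM, from RefSeq's GRCh38.p14 at chr1:145996631-145996687 on the minus strand, upstream of the start, with the element in capitals.
TXNIP: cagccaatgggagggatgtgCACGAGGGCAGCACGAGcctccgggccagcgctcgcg

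**Figure D2:**
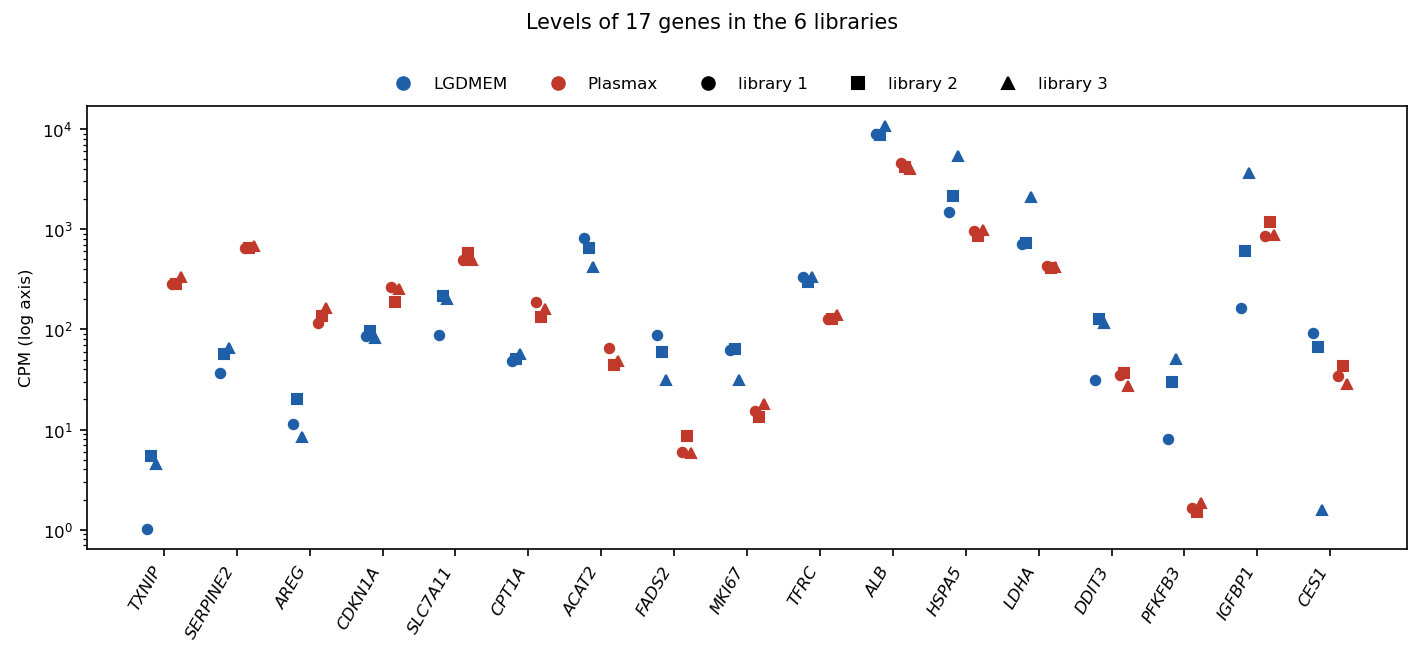
Levels of 17 genes in CPM (log axis) in each of the 3 LGDMEM libraries (blue) and the 3 Plasmax libraries (red), with the marker shape giving the library number. TXNIP, SERPINE2 and ACAT2 are separated by more than the spread of either medium, whereas IGFBP1 and CES1 in LGDMEM range on both sides of the Plasmax libraries.

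Other genes of the glucose list, 15 measured with 5 that rose, 2 that fell (1 without LGDMEM 1) and a median log2 fold change of 0.22, included the Krüppel-like factors KLF10 and KLF11, which repress transcription. KLF10 was at 50.7, 39.4 and 53.7 CPM in Plasmax and 9.09, 11.6 and 8.38 CPM in LGDMEM, without overlap (log2 fold change 2.3, SE 0.35, adjusted p = 0.000144). PPARGC1A, a coactivator of gluconeogenesis and mitochondrial genes, rose at 1.09. The gluconeogenic enzymes PCK1 at 0.47 and G6PC at 0.41 were not called.

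SERPINE2, a secreted inhibitor of thrombin and plasminogen activators, was at 648, 645 and 678 CPM in Plasmax and 36.9, 56.6 and 65.2 CPM in LGDMEM. The groups did not overlap and the 3 Plasmax values lay within a narrow range (log2 fold change 3.63, SE 0.23, adjusted p = 9.22e-09). AREG, a ligand of the epidermal growth factor receptor, was at 116, 135 and 162 CPM and 11.4, 20.1 and 8.38 CPM, again without overlap (log2 fold change 3.36, SE 0.26, adjusted p = 9.86e-08). EREG, a second ligand of that receptor named after its values were seen, had 15, 24 and 16 reads in Plasmax and none in LGDMEM, at least 16.5-fold higher. The surface protein CD109, a binder of TGF-β, was at 28.2, 24.1 and 36.6 CPM in Plasmax and 2.02, 1.38 and 1.36 CPM in LGDMEM. The remaining largest rises among genes of at least 10 CPM were ZNF528-AS1 (3.58, and 4.33 or 2.99 without LGDMEM 1 or 2), TMEM59L (3.24), CYP1A1 (3.2), the glucocorticoid-induced TSC22D3 (3.16), PAQR5 (3.14), CSTA (3.1), CDKN2B (3.02) and ORM1 (2.99). CYP1A1, a monooxygenase induced through the aryl hydrocarbon receptor, was at 2.78, 3.93 and 0.226 CPM in LGDMEM, where library 3 was the lowest, and its log2 fold change was 3.87 without LGDMEM 2. CSTA, a cysteine protease inhibitor, was highest in LGDMEM 3, at 4.29, 4.52 and 18.6 CPM, and its log2 fold change was 4.14 without that library. G0S2, an inhibitor of triglyceride lipase named after its values were seen, had no LGDMEM read and 53, 81 and 26 reads in Plasmax, at least 48.0-fold higher.

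Genes of cholesterol synthesis were lower in Plasmax whichever LGDMEM library was the reference. Among the 19 measured genes 16 fell and 0 rose, the median change was −2.39 on the log2 scale, and all 16 kept the call without each LGDMEM library. ACAT2, which joins acetyl-CoA units in the cytosol, was at 65.7, 43.8 and 47.96 CPM in Plasmax and 821, 649 and 415 CPM in LGDMEM (log2 fold change −3.58, SE 0.21, adjusted p = 9.22e-09). HMGCS1, which makes HMG-CoA, was at 44.5, 47.01 and 45.1 CPM in Plasmax and 418, 272 and 141 CPM in LGDMEM. Neither gene's groups overlapped, but in both genes LGDMEM 1 was the highest and LGDMEM 3 the lowest of the LGDMEM libraries. That order held for 16 of the 19 genes, against 2187 of all 10945 genes (19.98%). HMGCS1 accordingly had a log2 fold change of −2.6 (SE 0.26, adjusted p = 1.88e-06) that became −2.18 without LGDMEM 1 and −2.92 without LGDMEM 3. Against LGDMEM 1, 2 or 3 alone the median of the list was −2.60, −2.34 or −1.71. MVK (−3.47, and −4.17 without Plasmax 2) and MVD (−2.84), kinase and decarboxylase of the mevalonate steps, and MSMO1 (−2.96), a sterol demethylase, fell similarly far. Members not called included PMVK (0.069) and HSD17B7 (−0.98). The core letters TCACNCCAC of the sterol regulatory element, both strands, were found in none of the 14 promoter windows of this list and in 1.14% of those of tested genes, which says only that these letters were not in these windows.

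Among genes of sterol uptake and its control 6 of 12 fell and none rose. STARD4, a sterol carrier, was at 1.24, 3.22 and 1.45 CPM in Plasmax and 21.5, 23.4 and 19.2 CPM in LGDMEM, without overlap (log2 fold change −3.41, SE 0.35, adjusted p = 2.28e-06). The regulator SREBF2 (−1.28) fell, and SREBF1 (−0.12) and SCAP (0.36) were not called. In fatty acid synthesis 10 of 15 members fell and 1, ELOVL5, rose, with a median of −1.02. The number that fell was 9, 7 or 10 without LGDMEM 1, 2 or 3 and 11, 7 or 8 without Plasmax 1, 2 or 3. The desaturases FADS2, at 5.97, 8.72 and 5.79 CPM against 87.3, 59.95 and 31.5 CPM, and SCD, at 409.7, 349 and 358 CPM against 1447, 1404 and 1145 CPM, showed no overlap, and LGDMEM 3 was the lowest LGDMEM library in both. Their log2 fold changes were −3.11 (SE 0.31) and −1.84 (SE 0.11). CPT1A, the gate of fatty acid entry into mitochondria, went the other way, at 187, 133 and 159.99 CPM in Plasmax and 47.96, 50.9 and 57.3 CPM in LGDMEM (log2 fold change 1.62, SE 0.15, adjusted p = 7.65e-07). Its list of fatty acid oxidation genes had 2 of 15 up and 3 down with a median of 0.026, and HADHB, the other gene that rose, lost the call without LGDMEM 2, Plasmax 1 or Plasmax 3. FABP1, the liver fatty acid binding protein, fell, with a log2 fold change of −2.07.

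Genes of mitosis and DNA replication were lower in Plasmax, and here the size depended on the LGDMEM library. Of 24 mitosis genes 21 fell and none rose (median log2 fold change −1.21), and of 24 replication genes 20 fell and none rose (median −1.22). MKI67, a protein of the surface of mitotic chromosomes used to mark cycling cells, was at 15.2, 13.5 and 18.2 CPM in Plasmax and 62.3, 64.3 and 31.2 CPM in LGDMEM (log2 fold change −1.75, SE 0.24, adjusted p = 4.51e-05). The groups did not overlap, with LGDMEM 3 nearest to Plasmax. CDC20, an activator of the anaphase-promoting complex, was at 45.7, 44.9 and 34.5 CPM and 179, 164 and 71.3 CPM, with the same library nearest, and the mitotic motor KIF11 was at 6.39, 4.93 and 3.31 CPM and 27.8, 20.2 and 7.7 CPM. UBE2C, the ubiquitin-conjugating enzyme of that complex, hardly varied within a medium, at 24.7, 24.6 and 26.05 CPM and 87.1, 78.2 and 72.9 CPM (log2 fold change −1.66, SE 0.17, adjusted p = 1.75e-06). In bulk RNA a smaller share of cycling cells and less of these transcripts per cell cannot be told apart.

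CDT1, a licensing factor of replication origins, was at 15.04, 13.8 and 20.5 CPM in Plasmax and 99.95, 63.5 and 50.04 CPM in LGDMEM (log2 fold change −2.11, SE 0.23, adjusted p = 4.52e-06). TK1, thymidine kinase, was at 14.01, 18.2 and 10.5 CPM and 94.1, 42.5 and 40.5 CPM, and its log2 fold change of −2.04 became −1.54 without LGDMEM 1. MCM2, a subunit of the replicative helicase, was at 78.7, 58.4 and 48.4 CPM and 263, 248 and 146 CPM. In each of these genes LGDMEM 1 was the highest library, and LGDMEM 1 was the highest and LGDMEM 3 the lowest LGDMEM library in 22 of 24 replication and 21 of 24 mitosis genes. The mean log2 CPM of the replication list was 6.36, 5.73 and 5.11 in LGDMEM, 4.65, 4.69 and 4.47 in Plasmax and 5.88 to 6.32 over the 6 EMEM and HGDMEM libraries, so that LGDMEM 1 lay just above that range and LGDMEM 2 and 3 below it. Against LGDMEM 1, 2 or 3 alone the median of the list was −1.68, −1.07 or −0.49. Calls in it numbered 11 without LGDMEM 1, 17 without LGDMEM 2 and 21 without LGDMEM 3, all lower in Plasmax. Without Plasmax 1, 2 or 3 they numbered 19, 17 or 14. Calls in the mitosis list numbered 17, 17 or 22 without LGDMEM 1, 2 or 3. They numbered 17, 20 or 17 without Plasmax 1, 2 or 3.

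Promoters of mitosis genes often carry the CHR element, the letters TTTGAA, through which the DREAM complex and MuvB proteins act in quiescent and dividing cells. It was found on either strand in 13 of the 19 mitosis promoters with a RefSeq sequence (68.4%), in 1 of 21 replication promoters (4.76%), in 9.47% of those of tested genes and in 15.4% of all. The match describes the letters and not a bound site. Stretches upstream of the starts of genes that fell are shown with the matches in capitals, from GRCh38.p14, for KIF11 at chr10:92593082-92593127 on the plus strand (match on the opposite strand), MKI67 at chr10:128126427-128126490 on the minus strand and PLK1, a mitotic kinase, at chr16:23678840-23678885 on the plus strand.
KIF11: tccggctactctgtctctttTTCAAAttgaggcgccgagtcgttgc
MKI67: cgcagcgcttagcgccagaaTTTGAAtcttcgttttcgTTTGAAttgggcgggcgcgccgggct
PLK1: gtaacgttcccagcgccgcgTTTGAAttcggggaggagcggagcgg

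Of 16 G1 cyclins and cycle inhibitors 5 rose and 4 fell, and the number that fell was 2 without LGDMEM 1, Plasmax 1 or Plasmax 2. CDKN1A, the p21 inhibitor of cyclin-dependent kinases and a target of p53, was at 268, 188 and 252 CPM in Plasmax and 85.1, 97.1 and 81.3 CPM in LGDMEM, without overlap (log2 fold change 1.42, SE 0.16, adjusted p = 6.34e-06), and it stayed between 1.37 and 1.5 without a LGDMEM library. CDKN2B, the p15 inhibitor of CDK4 and CDK6, was at 43.9, 42.3 and 59.9 CPM and 1.51, 6.68 and 9.51 CPM, with LGDMEM 1 the lowest. CDKN2C (−2.07), a related inhibitor, fell, and CDK6 (1.01) rose. Of 24 p53 targets 8 rose and none fell (median 0.40), including the ribonucleotide reductase subunit RRM2B at 33.4, 48.9 and 49.8 CPM against 10.1, 16.9 and 11.8 CPM (log2 fold change 1.76, SE 0.23). PHLDA3 (1.19) and TP53INP1 (1.08) rose as well, while GDF15 (−0.2) and SESN1 (−0.26) were not called. The median of this list was 0.56, 0.42 or 0.70 against LGDMEM 1, 2 or 3 alone.

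Among iron genes TFRC and FTL fell and differed little among the LGDMEM libraries. TFRC, the transferrin receptor, was at 126, 128 and 139 CPM in Plasmax and 337, 299.97 and 331 CPM in LGDMEM (log2 fold change −1.3, SE 0.11, adjusted p = 2.43e-07). FTL, the ferritin light chain, was at 4581, 4488 and 3746 CPM and 7526, 7807 and 7858 CPM (log2 fold change −0.86, SE 0.09), and FTH1, the heavy chain, was at 345, 323 and 390.5 CPM and 295, 343 and 323 CPM and was not called (log2 fold change 0.14, SE 0.13, adjusted p = 0.498). Groups overlapped for FTH1 alone of these 3, and both ferritins have processed pseudogenes that make their counts less certain. Of 17 iron uptake and storage genes 8 fell and none rose, with a median of −0.58. The number that fell was 9, 6 or 7 without LGDMEM 1, 2 or 3 and 6 without any 1 Plasmax library. HAMP, which encodes hepcidin, the hormone that closes the iron exporter, was at 8.03, 10.05 and 3.1 CPM in Plasmax and 41.1, 67.6 and 21.1 CPM in LGDMEM. It did not overlap, but varied about as much in each medium (log2 fold change −2.61, SE 0.37, adjusted p = 7.18e-05; without LGDMEM 2 it was −2.13). ID1, a target of the BMP pathway that drives HAMP, fell (log2 fold change −0.92), while the receptor subunit BMPR2 (1.36) rose in the full fit and lost the call without LGDMEM 1 (adjusted p = 0.0765), LGDMEM 3 (adjusted p = 0.0618) or Plasmax 3 (adjusted p = 0.107). NEO1 (1.31), the neogenin coreceptor, rose. Of the 14 hepcidin and BMP genes 3 rose and 4 fell, and 1 rose without LGDMEM 1 or Plasmax 3. Haem and iron-sulphur genes had 1 of 26 up and 3 down, below the 21.2% of genes called in all, and the rise, of FDXR, was not called without Plasmax 1 (adjusted p = 0.0717) or LGDMEM 3 (adjusted p = 0.0705).

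Metal and redox genes fell in part. MT1G, a metallothionein, was at 167, 211 and 164 CPM in Plasmax and 2223, 1721 and 611 CPM in LGDMEM, with LGDMEM 3 nearest to Plasmax (log2 fold change −3.07, SE 0.34, adjusted p = 5.21e-06; −2.69 without LGDMEM 1 and −3.45 without LGDMEM 3). MT1F (−1.94), MT1X (−1.16) and MT1E (−0.76) also fell and MT2A (0.01) was not called, in a family of near-identical copies among which reads can be misassigned. Selenoproteins had 3 of 20 up and 7 down. Among them SELENOW was at 129, 114 and 130.02 CPM against 49.5, 36.2 and 30.1 CPM and rose, whereas the plasma selenoproteins GPX3, at 23.5, 27.1 and 34.9 CPM against 128, 101 and 102 CPM, and SELENOP, at 507, 434 and 452 CPM against 839, 814 and 1191 CPM, fell. The NRF2 list had 3 of 25 up (5 without LGDMEM 2) and 12 down. The number down was 11, 10 or 12 without LGDMEM 1, 2 or 3 and 9, 9 or 8 without Plasmax 1, 2 or 3. GSTA1, a glutathione transferase, was at 0.824, 0.758 and 0.62 CPM against 40.4, 17.7 and 16.5 CPM (log2 fold change −5.03, SE 0.50, adjusted p = 1.38e-06). That was the largest fall among genes of at least 10 CPM, and the aldo-keto reductase AKR1C2 (−1.18) fell with it. SLC7A11, the cystine transporter that belongs to both the NRF2 and the ATF4 lists, was at 494, 580.1 and 489 CPM in Plasmax and 88.6, 214 and 199 CPM in LGDMEM and rose (log2 fold change 1.64, SE 0.25, adjusted p = 0.000168).

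Secreted liver proteins divided. ALB, albumin, was at 4624, 4196 and 3957 CPM in Plasmax and 8899, 8823 and 10672 CPM in LGDMEM, and AFP, its fetal counterpart, was at 1698, 2017 and 1664 CPM and 5539.8, 4235 and 5539.6 CPM. Both were lower in every Plasmax library (log2 fold changes −1.15, SE 0.10, adjusted p = 2.43e-07, and −1.51, SE 0.12, adjusted p = 1.6e-07). Of 19 plasma carrier and fetal liver genes 7 fell and 6 rose. SERPINC1, antithrombin, was at 40.4, 48.3 and 44.2 CPM and 113, 92.4 and 176 CPM and fell. VTN, the adhesion protein vitronectin, was at 17.7, 25.2 and 21.3 CPM and 11.9, 6.49 and 4.3 CPM and rose. Among 13 apolipoprotein and lipoprotein assembly genes 6 fell and none rose, and all 6 kept the call without each LGDMEM library. Without LGDMEM 3 another 3, APOC1, APOE and APOM, were called higher. The 6 that fell included APOA2, at 3176, 3135 and 3194 CPM against 5762, 5548 and 6954 CPM, and APOA5 (−2.02). APOH, at −1.45, also fell, and APOB, the core protein of very low density lipoprotein, was not called (−0.048).

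Acute phase proteins, made by liver under cytokines, had 9 of 14 members up and 2 down (1 without Plasmax 2). The number up was 7, 6 or 6 without LGDMEM 1, 2 or 3. It was 6, 7 or 7 without Plasmax 1, 2 or 3. The antichymotrypsin SERPINA3 was at 49.6, 28.1 and 42.4 CPM in Plasmax and 4.8, 17.1 and 7.7 CPM in LGDMEM (log2 fold change 1.99, SE 0.40, adjusted p = 0.00152, and 2.66 without LGDMEM 2). SOCS3, a feedback inhibitor of STAT3 signalling, was at 24.1, 17.4 and 17.98 CPM and 1.51, 6.88 and 5.43 CPM, had a log2 fold change of 2.08 and lost the call without LGDMEM 1 (adjusted p = 0.0534) or Plasmax 1 (adjusted p = 0.057). ORM1 and ORM2, near-identical copies of orosomucoid, moved apart, with ORM1 at 331, 366 and 44.2 CPM against 22.7, 29.7 and 40.8 CPM and ORM2 at 48.6, 35.1 and 52.7 CPM against 56.8, 212 and 295 CPM. Their summed level was 380, 401 and 96.9 CPM in Plasmax and 79.5, 241 and 336 CPM in LGDMEM, which overlap, so neither change is certain, and ORM2 lost its call without Plasmax 2 (adjusted p = 0.0533). Of 17 hepatocyte markers 7 fell and 2 rose, of which FGB lost the call without LGDMEM 2, LGDMEM 3 or Plasmax 1. CEBPA, a hepatocyte transcription factor, was at 88.4, 100.3 and 66.4 CPM against 294, 198 and 143 CPM, with LGDMEM 1 the highest and LGDMEM 3 nearest to Plasmax, and its log2 fold change of −1.31 became −1.01 without LGDMEM 1.

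HIF targets were lower in Plasmax than in LGDMEM 2 and 3, while the median member was near level with LGDMEM 1. The mean log2 CPM of 27 HIF targets was 4.06, 4.21 and 4.23 in Plasmax and 4.48, 5.22 and 5.82 in LGDMEM. LGDMEM 1 lay within the 4.21 to 4.85 spanned by the EMEM and HGDMEM libraries, and LGDMEM 2 and 3 lay above all of them. LGDMEM 3 was the highest and LGDMEM 1 the lowest LGDMEM library in 19 of these 27 genes and in 12 of 20 glycolysis genes, against 2249 of all genes (20.5%). In the full fit 10 HIF targets fell and 2 rose, and the median of the list was −0.73. Against LGDMEM 1, 2 or 3 alone the median was 0.065, −0.71 or −1.28. In the fit with LGDMEM 1 alone 14 of 27 genes were higher in Plasmax, as were 5695 of all 10945 genes. The number that fell was 15 without LGDMEM 1, 10 without LGDMEM 2 and 7 without LGDMEM 3. Without Plasmax 1, 2 or 3 it was 8, 9 or 9. The genes that rose, MXI1 and SLC2A1, both lost the call without LGDMEM 1, LGDMEM 2 or Plasmax 2, and SLC2A1 also without Plasmax 1 or 3. The core letters ACGTG of the hypoxia response element, both strands, stood in 13 of 23 promoters of the list (56.5%), in 27.3% of those of tested genes and in 21.6% of all.

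**Figure D3:**
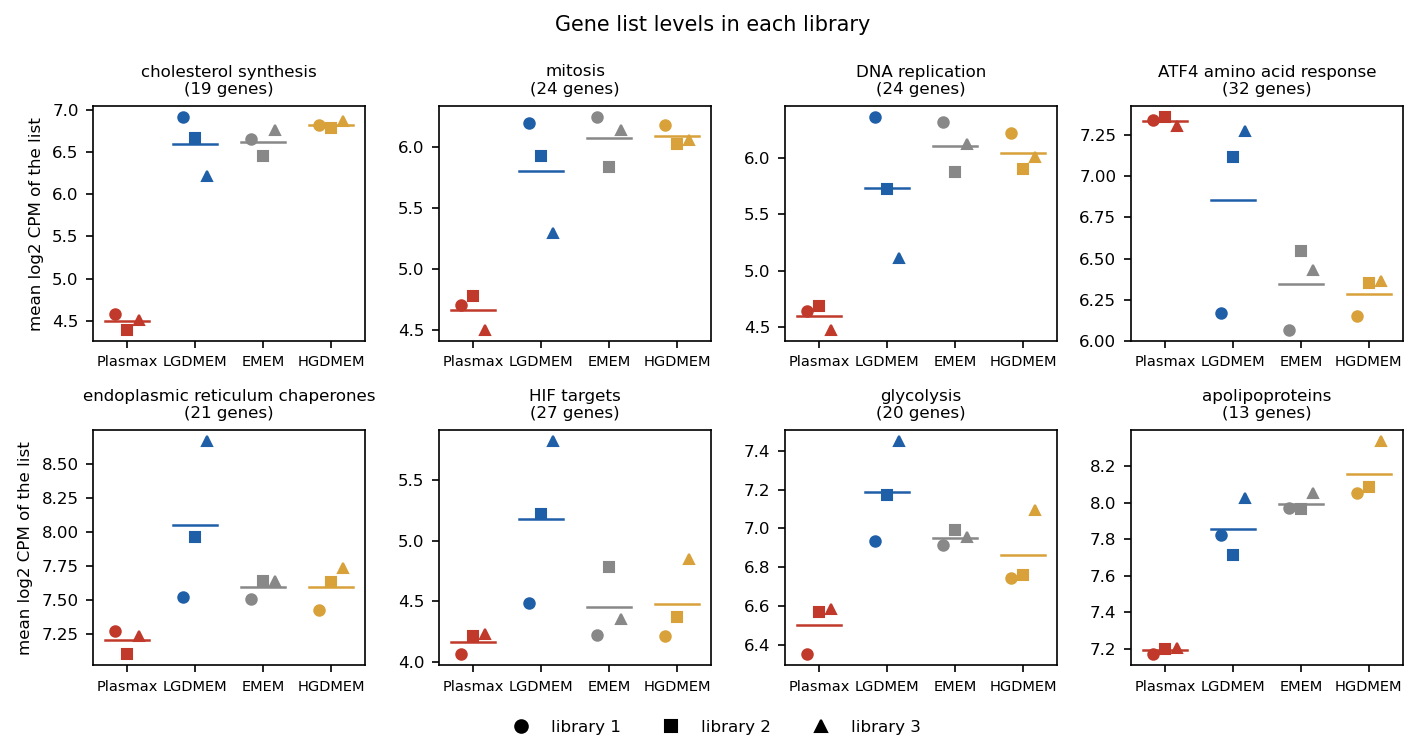
Mean log2 CPM of 8 gene lists in each library of the 4 media (Plasmax red, LGDMEM blue, EMEM grey, HGDMEM yellow), with marker shapes for library numbers and horizontal lines for the mean of a medium. In the HIF and chaperone lists LGDMEM 3 lies above every other library, and in the replication list it lies between Plasmax and all EMEM and HGDMEM libraries.

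Single HIF targets followed that order to differing degrees. PFKFB3, which makes the activator of phosphofructokinase, was at 1.65, 1.52 and 1.86 CPM in Plasmax and 8.08, 30.1 and 50.5 CPM in LGDMEM (log2 fold change −4.13, SE 0.66, adjusted p = 0.000227). It did not overlap, and its change without LGDMEM 3 was −3.5. CA9, carbonic anhydrase IX, was at 0.206, 0 and 0.207 CPM and 0.505, 3.93 and 20.6 CPM. These are 2 reads in all of Plasmax and 113 in LGDMEM, a ratio of 62.8-fold with a 95% exact counting interval of 16.99 to 525. That interval covers counting error only and not the spread among libraries, and most LGDMEM reads were in library 3. The call (adjusted p = 0.00672) was lost without that library (adjusted p = 0.0604). EPO, erythropoietin, was at 0, 1.52 and 0.827 CPM against 21.5, 18.1 and 32.8 CPM, and there all 3 LGDMEM libraries were high (log2 fold change −4.87, SE 0.54, adjusted p = 4.85e-06, and −5.78 without Plasmax 2). BNIP3, of mitochondrial autophagy, was at 64.3, 57.8 and 58.9 CPM and 94.1, 119 and 240.2 CPM, with a change of −1.33 that became −0.83 without LGDMEM 3. VEGFA, the vascular growth factor, was at 83.6, 83.4 and 71.9 CPM and 40.4, 89.6 and 79.9 CPM and was not called (log2 fold change 0.18, SE 0.21, adjusted p = 0.576). Its groups overlapped, with LGDMEM 1 the lowest library.

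In glycolysis 9 of 20 genes fell and 1 rose, with a median of −0.46 that was −0.45, −0.60 or −0.65 against each LGDMEM library alone. LDHA, which turns pyruvate to lactate, was at 425, 414 and 419 CPM in Plasmax and 716, 727 and 2105 CPM in LGDMEM. LGDMEM 3 stood far above the other LGDMEM libraries, and the log2 fold change of −1.5 (SE 0.28, adjusted p = 0.00081) became −0.78 without it (adjusted p = 2.81e-05). The brain-type aldolase ALDOC was at 2.27, 3.22 and 1.45 CPM and 29.3, 22.4 and 51.8 CPM, without overlap (log2 fold change −3.87, SE 0.39, adjusted p = 1.93e-06). SLC16A3, a lactate exporter, was at 99.3, 93.3 and 99.2 CPM and 214, 235 and 302 CPM, and SLC2A3, a glucose transporter, was at 114, 131 and 132 CPM and 266, 379 and 494 CPM. Both fell, at −1.36 and −1.59. Their changes were −1.46 and −1.79 without LGDMEM 1, and −1.21 and −1.36 without LGDMEM 3. SLC2A1, the other main glucose transporter, was the list member that rose, at 1213, 1222 and 1119 CPM against 539, 765 and 1082 CPM (log2 fold change 0.57, SE 0.19, adjusted p = 0.035). LGDMEM 3 came close to Plasmax there, and the call was lost without LGDMEM 1 (adjusted p = 0.151) or LGDMEM 2 (adjusted p = 0.0937). It was also lost without each Plasmax library (adjusted p = 0.0882, 0.0931 and 0.0633).

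Chaperones of the endoplasmic reticulum fell, by an amount that was smaller without LGDMEM 3. Of 21 genes 12 fell and none rose, with a median of −0.77. HSPA5, the BiP chaperone, was at 971, 856 and 972 CPM in Plasmax and 1482, 2149.9 and 5349.9 CPM in LGDMEM. Every LGDMEM value lay above every Plasmax value, and LGDMEM 3 was far above the rest. Its log2 fold change was −1.68 (SE 0.29, adjusted p = 0.000477) with all libraries and −0.96 (adjusted p = 5.02e-05) without LGDMEM 3. SDF2L1, a cochaperone of BiP, was at 60.1, 37.2 and 48.8 CPM and 157, 300.4 and 466 CPM (log2 fold change −2.66, SE 0.28, adjusted p = 2.71e-06), CRELD2 was at 33.8, 34.3 and 37.6 CPM and 109.5, 119.7 and 243 CPM, and the secreted MANF was at 105, 71.8 and 86.8 CPM and 221, 315 and 569 CPM. All 3 fell whichever LGDMEM library was left out, with LGDMEM 3 the highest in each. The mean log2 CPM of the list was 7.52, 7.96 and 8.67 in LGDMEM, 7.10 to 7.27 in Plasmax and 7.42 to 7.73 in EMEM and HGDMEM, and LGDMEM 1 lay in that last range while LGDMEM 2 and 3 lay above it. Against LGDMEM 1, 2 or 3 alone the median was −0.15, −0.51 or −1.18, with 8, 0 and 0 of the 21 genes higher in Plasmax. Over all 10945 genes 5695, 5580 and 5608 were higher in those fits. The calls numbered 16 without LGDMEM 1, 13 without LGDMEM 2 and 8 without LGDMEM 3. Without Plasmax 1, 2 or 3 they numbered 9, 8 or 9, so leaving out a Plasmax library also lowered the count.

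The element through which ATF6 raises chaperones, CCAAT and CCACG 9 bases apart (letters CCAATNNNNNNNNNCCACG, both strands), was present in 6 of 20 promoters of this list (30%), those of HSPA5, HSP90B1, CALR, CANX, CRELD2 and XBP1, against 0.161% of those of tested genes and 0.0806% of all. HSP90B1 (−0.61) and XBP1 (−0.23) were not called. Matches in called members are shown in capitals, from GRCh38.p14, for CRELD2 at chr22:49918534-49918592 on the plus strand and HSPA5 at chr9:125241371-125241429 on the minus strand, and for CALR, calreticulin (−1.46), at chr19:12938364-12938422 on the plus strand. The matches of CRELD2 and CALR lie on the opposite strand.
CRELD2: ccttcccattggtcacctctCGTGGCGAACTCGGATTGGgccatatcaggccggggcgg
HSPA5: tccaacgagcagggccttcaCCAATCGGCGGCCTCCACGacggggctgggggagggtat
CALR: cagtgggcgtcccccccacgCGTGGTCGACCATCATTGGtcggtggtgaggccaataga

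Genes of the ATF4 amino acid response were higher in Plasmax than in LGDMEM 1, and close to level with LGDMEM 2 and 3. Of 32 measured members 8 rose and 1 fell, with a median of 0.31, and the median was 1.104 against LGDMEM 1 alone, 0.11 against LGDMEM 2 alone and −0.0042 against LGDMEM 3 alone. Genes higher in Plasmax numbered 29, 18 and 15 of 32 in those fits, against 5695, 5580 and 5608 of all 10945 genes. The mean log2 CPM of the list was 7.35, 7.36 and 7.30 in Plasmax and 6.17, 7.12 and 7.27 in LGDMEM. LGDMEM 1 lay within the 6.06 to 6.55 of the EMEM and HGDMEM libraries, and LGDMEM 2 and 3 lay above them, close to Plasmax. Of the members, 23 were not called. The number that rose was 6, 7 or 12 without LGDMEM 1, 2 or 3 and 7, 7 or 6 without Plasmax 1, 2 or 3. The number that fell was 2 in place of 1 without LGDMEM 1, LGDMEM 3, Plasmax 1 or Plasmax 3. PSAT1 and PHGDH, of serine synthesis, were at 806, 869 and 879 CPM against 325, 421 and 535 CPM and at 322, 336 and 252 CPM against 137, 164 and 179 CPM, and both rose without overlap. Their log2 fold changes were 1.0 (SE 0.15, adjusted p = 0.000139) and 0.92 (SE 0.17, adjusted p = 0.000969). CHAC1, which breaks down glutathione, was at 2.68, 4.55 and 4.96 CPM and 0, 0 and 0.679 CPM. Its 61 reads in Plasmax and 3 in LGDMEM gave a ratio of 18.3-fold with a counting interval of 5.97 to 91.2, which covers counting error only. Its call was lost without LGDMEM 1 (adjusted p = 0.0587), LGDMEM 2 (adjusted p = 0.061) or Plasmax 3 (adjusted p = 0.0505).

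DDIT3, the CHOP transcription factor, was at 35.02, 36.4 and 27.5 CPM in Plasmax and 31.05, 128 and 115 CPM in LGDMEM, so LGDMEM 1 fell among the Plasmax values and LGDMEM 2 and 3 lay far above. It fell in the full fit (log2 fold change −1.48, SE 0.35, adjusted p = 0.00517) and stood at 0.087 against LGDMEM 1 alone. TRIB3, a pseudokinase that restrains AKT, was at 95.2, 104 and 70.7 CPM and 60.8, 106 and 119 CPM, with overlap, and was not called (log2 fold change −0.083, SE 0.25, adjusted p = 0.855). ATF4 itself was not called either (−0.17). Of 20 cytosolic aminoacyl-tRNA synthetases 7 rose and none fell, with a median of 0.17 that was 0.57, 0.30 or 0.15 against LGDMEM 1, 2 or 3 alone. The number that rose was 4 without LGDMEM 1 or Plasmax 3, where EPRS, LARS and TARS lost the call. MARS, for methionine, was at 281, 264 and 308 CPM in Plasmax and 96.4, 139 and 172 CPM in LGDMEM, and NARS, for asparagine, was at 296, 287 and 265 CPM and 131, 158 and 161 CPM. Neither overlapped, and both kept the call without each LGDMEM library (log2 fold changes 1.07, SE 0.18, and 0.91, SE 0.13).

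**Figure D4:**
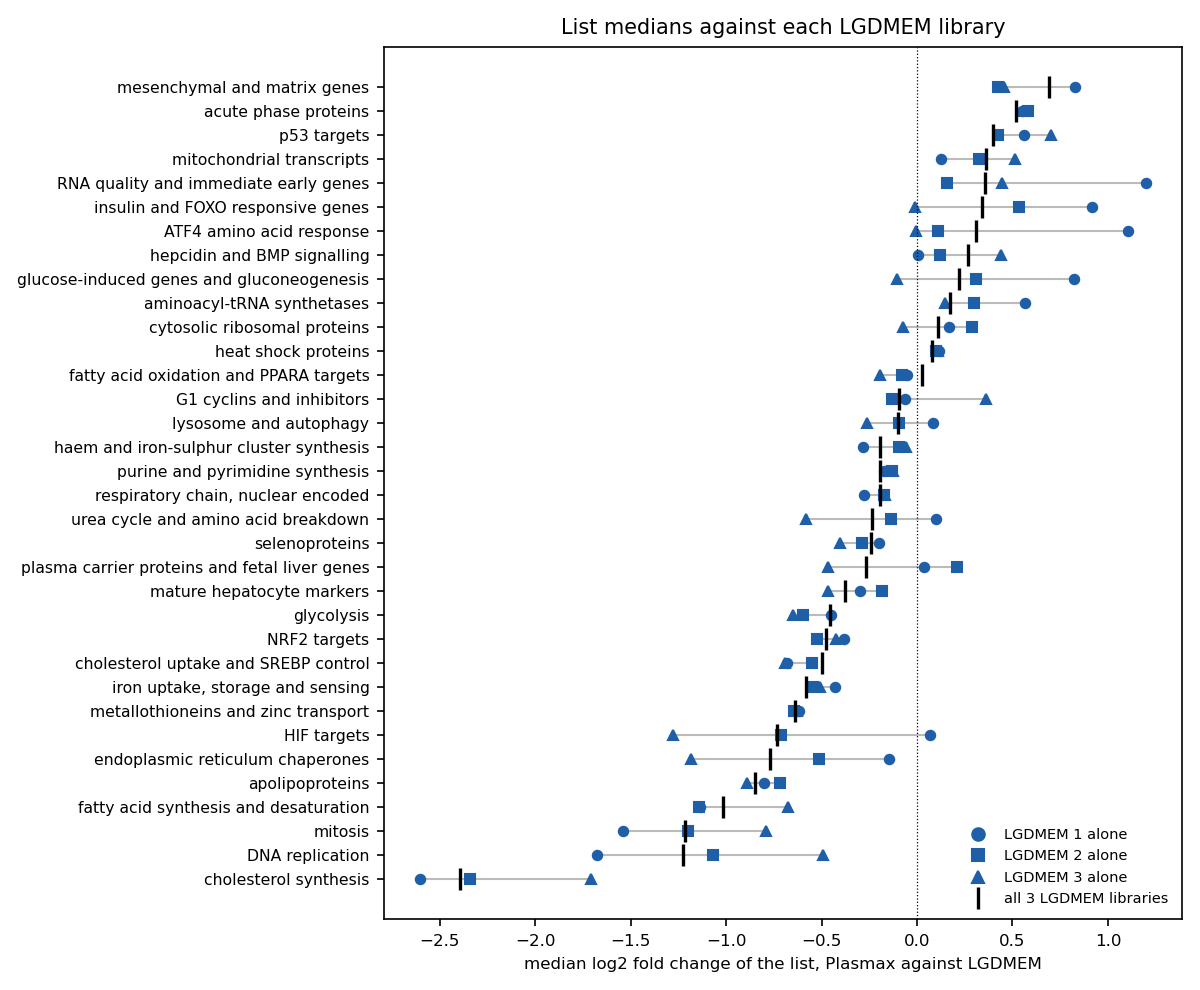
Median log2 fold change (Plasmax over LGDMEM) of each gene list with all 3 LGDMEM libraries (black bar) and with LGDMEM 1, 2 or 3 alone as the reference (circle, square and triangle). Cholesterol synthesis lies between −2.60 and −1.71, HIF targets range from −1.28 to 0.065 and the ATF4 list from −0.0042 to 1.104.

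The plot of list medians sets these lists beside the others. Insulin and FOXO responsive genes shifted in the direction of the ATF4 list, with medians of 0.92, 0.53 and −0.0086 and 4 of 17 up and 2 down in the full fit (1 down, without SGK1, when LGDMEM 3 or Plasmax 3 was left out). IRS1, an adaptor of the insulin receptor, was at 69.8, 60.9 and 49.6 CPM in Plasmax and 15.1, 25.9 and 21.3 CPM in LGDMEM and rose without overlap (log2 fold change 1.52, SE 0.23, adjusted p = 0.000116). IGFBP1, a secreted binder of insulin-like growth factors that FOXO induces and insulin represses, was at 854, 1169.8 and 870.5 CPM and 163, 599.9 and 3619 CPM. LGDMEM 1 and 2 lay below and LGDMEM 3 above all Plasmax libraries, and the gene was not called (log2 fold change −0.6, SE 0.73, adjusted p = 0.609). Without LGDMEM 3 its change was 1.33 and without LGDMEM 1 it was −1.13, neither called (adjusted p = 0.122 and 0.231). DEPP1, another gene induced by FOXO, was at 70.4, 84.5 and 99.01 CPM and 18.2, 54.5 and 204 CPM, and it was not called with all libraries but was called without LGDMEM 3 (log2 fold change 1.2, adjusted p = 0.0341). The medians of 2 lists, metallothioneins with zinc transport genes and apolipoproteins, shifted little. They were −0.62, −0.65 and −0.63 and −0.80, −0.72 and −0.89 against LGDMEM 1, 2 and 3 alone. Single metallothioneins differed in this. MT1G was at 2223, 1721 and 611 CPM in the LGDMEM libraries and MT1E at 1458, 1313 and 1528 CPM.

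Over 7854 genes of at least 10 CPM the median SD of log2 CPM among 3 libraries was 0.239 in LGDMEM, 0.192 in Plasmax, 0.202 in EMEM and 0.190 in HGDMEM. An SD of at least 0.5 was found for 991 of these genes in LGDMEM, 568 in Plasmax, 572 in EMEM and 491 in HGDMEM. The biological coefficient of variation was 0.252 over the LGDMEM libraries and 0.196 to 0.204 in the other media, while the fit to all libraries used a common value of 0.215. LGDMEM 3 stood farthest from the other LGDMEM libraries for 39.3% of these genes, LGDMEM 1 for 34.5% and LGDMEM 2 for 26.2%. A distance of at least 1 log2 unit from the mean of the other LGDMEM libraries occurred in 297 genes for LGDMEM 1 (90 higher, 207 lower), 146 for LGDMEM 2 and 338 for LGDMEM 3 (182 higher, 156 lower), against 102 to 137 genes for a Plasmax library.

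**Figure D5:**
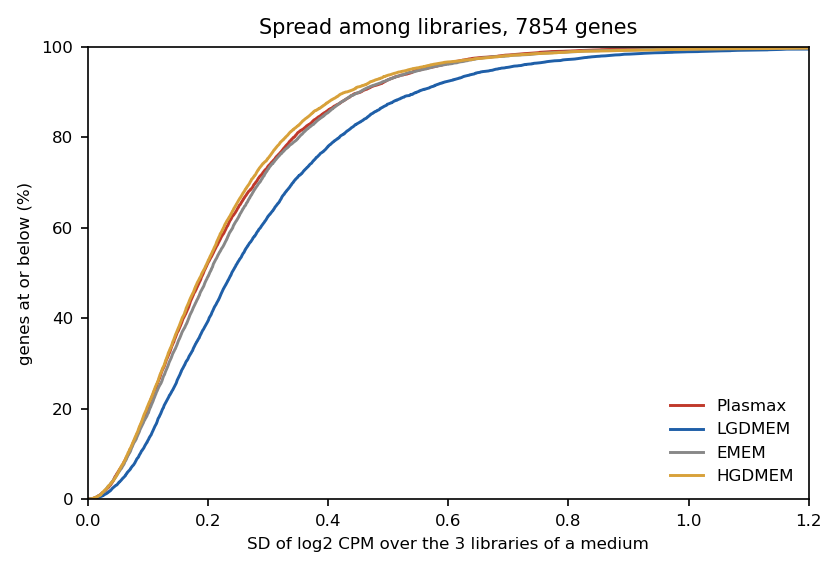
Share of 7854 genes (y axis, percent) whose SD of log2 CPM over the 3 libraries of a medium is at or below the value on the x axis, for the 4 media. The LGDMEM curve lies to the right of the other 3, which nearly coincide, with a median of 0.239 against 0.190 to 0.202.

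The curves of spread by medium do not say which LGDMEM library is typical. Measured as the median absolute log2 difference from the mean of the EMEM and HGDMEM libraries, LGDMEM 1 was nearest at 0.177, LGDMEM 2 stood at 0.193 and LGDMEM 3 at 0.254, with 68, 141 and 346 genes at least 1 log2 unit away. Plasmax libraries were at 0.360 to 0.398 by that measure. The distances between LGDMEM libraries were 0.247 for 1 and 2, 0.268 for 2 and 3 and 0.311 for 1 and 3, and those between Plasmax libraries were 0.206 to 0.225. LGDMEM 1 also had the lowest count total. Whether depth had a part in these differences was not tested.

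Models that give noisier libraries less weight moved the calls in opposite directions. With limma voom, which weights single counts by their precision, 2236 genes were called. Adding a weight per medium, an alternative chosen after seeing the data, gave LGDMEM a weight of 0.785 and the other media 1.06 to 1.11, and 1948 genes were called. A weight per library gave LGDMEM 2 the highest value, 2.26, and LGDMEM 1 and 3 low ones, 0.637 and 0.471, and 2743 genes were called, of which 620 were not called by edgeR.

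The genes with the widest spread in LGDMEM included near-identical copies, among which reads can be misassigned. EIF3C was at 1.51, 100.3 and 113 CPM in LGDMEM and its copy EIF3CL at 276, 8.85 and 5.89 CPM, and their sum of 278, 109 and 119 CPM varied less. In Plasmax the sum was 346, 151 and 31.8 CPM. EEF1A1, a translation elongation factor with many pseudogenes, was at 20.7, 587 and 33.3 CPM in LGDMEM and 458, 45.9 and 72.6 CPM in Plasmax, and RPS9 was at 509, 85.9 and 702 CPM and 158, 96.1 and 390.1 CPM. None of these 4 was called with all libraries. EEF1A1 was called without LGDMEM 2 (log2 fold change 2.82, adjusted p = 0.036) and EIF3CL without LGDMEM 3 (−3.24, adjusted p = 0.0348). Others are single genes. CES1, a liver carboxylesterase, was at 34.2, 43.03 and 28.7 CPM in Plasmax and 91.1, 67.03 and 1.58 CPM in LGDMEM, with LGDMEM 3 nearly without it. It was called lower without LGDMEM 3 (log2 fold change −1.16, adjusted p = 0.00302) and higher with LGDMEM 3 alone (4.46, adjusted p = 4.14e-05), but was not called with all libraries (−0.59, SE 0.60, adjusted p = 0.529). TNS1, a focal adhesion protein, was at 1.65, 1.71 and 6.2 CPM and 2.52, 8.65 and 62.3 CPM, and its call of −2.94 was lost without LGDMEM 3 (−0.83, adjusted p = 0.478), Plasmax 1 (adjusted p = 0.0834) or Plasmax 2 (adjusted p = 0.0851), and was −3.85 without Plasmax 3. VLDLR, the receptor for very low density lipoprotein, was at 16.7, 11.4 and 23.98 CPM and 0.757, 2.95 and 13.8 CPM, and LGDMEM 3 lay within the Plasmax range. It was not called with all libraries (adjusted p = 0.0856) and was called without LGDMEM 3 at 3.16 (adjusted p = 0.00136).

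Genes changed at least 2-fold without being called numbered 494, of which 19 had at least 10 CPM. In 12 of these 19 the SD of log2 CPM was larger in LGDMEM than in Plasmax. The same held for 4687 of all 7854 genes of at least 10 CPM (59.7%), a similar share. The media's libraries did not overlap for 3957 genes (36.2%), 1986 higher (18.1%) and 1971 lower (18%) in Plasmax. Of these 1741 were not called, while 105 called genes did overlap. Genes with the largest changes among those that gained or lost a call without a LGDMEM library were often low in count, as in the following examples. Without LGDMEM 1 the gene KLK6, at 3.5, 3.79 and 5.99 CPM in Plasmax and 1.77, 0 and 0 CPM in LGDMEM, was gained, and CNTNAP1, at 4.94, 3.22 and 6.2 CPM and 0, 0.786 and 0 CPM, was lost. Without LGDMEM 3 the gene LMF1, a lipase chaperone, at 4.94, 5.5 and 4.55 CPM and 0, 0 and 2.49 CPM, was gained and the bile acid transporter subunit SLC51A, at 0, 0.569 and 0 CPM and 2.02, 2.16 and 8.15 CPM, was lost, as it was without Plasmax 3. Without LGDMEM 2 the gene TEKT4P2, at 0.824, 0.948 and 2.27 CPM and 13.4, 0.59 and 13.4 CPM, was gained and SRPX2, at 3.5, 1.14 and 6.2 CPM and 0.505, 0.393 and 0 CPM, was lost, as it was without LGDMEM 1 or 3 and Plasmax 1 or 3.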

How the data were processed

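The authors deposited a single table of counts per gene, with no normalization stated. The values were whole numbers with unequal totals per library, so they were taken as raw counts. The submitters' processing notes name the hg19 and GRCh37 builds and, without roles, STAR 2.7.5b, featureCounts 1.6.3, cutadapt 1.16, FastQC 0.72 and limma 3.40.6. Libraries were made with a 3′ mRNA kit, per the labels' protocols. Rows with few counts had been left out before deposit by a rule not given in the sources used here. Rows without a symbol (601, holding 2.92% to 3.71% of a library's counts) were left out of totals and tests. Genes are identified by symbol alone, 17 symbols look like dates and 5 stand on 2 rows, which were tested separately. Table columns named medium and number, and 0 belonged to other samples.

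Counts of 10945 genes were fitted in R 4.3.3 with edgeR 4.0.16 (quasi-likelihood test, TMM scaling, all 12 libraries, medium as the only term, 8 residual and 10.4 prior degrees of freedom). The low-count filter of edgeR removed 0 genes. CPM use TMM-scaled library sizes, log2 CPM a prior count of 2, and the SE was obtained by dividing a log2 fold change by the root of its F statistic. The scripts were tested on simulated data. Each gene's log2 CPM spread is the SD over 3 libraries. Replicate numbers are shared by the media, but libraries of the same number did not deviate together (correlations over all genes of −0.019, −0.028 and −0.0051), so they were not taken as pairs. Alternatives were RLE and library-size scaling, no filter and a mean of at least 5 CPM, DESeq2 1.42.0, limma 3.58.1 voom with and without weights, a fit to the 6 libraries, a replicate block, an adjusted p of 0.01, each library left out, and each LGDMEM library alone, where the lone library is assumed to vary like the other media. Promoters (250 bases before to 50 after a start) came from RefSeq, build GRCh38.p14, matched by symbol, and no other coordinates are given because the files use another build. The element letters were searched on both strands.

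The members and lists were chosen with earlier results of these data known, so list counts describe and do not test. Genes named are the 12 largest rises and falls among called genes with at least 10 CPM and no overlap, up to 4 called members per list at that minimum, a fixed set (TXNIP, ARRDC4, TFRC, HAMP, FTH1, FTL, ALB, AFP, HMGCS1, CDKN1A, MKI67, DDIT3, ASNS, which is not analysed here, TRIB3, HSPA5, VEGFA, CA9, SLC2A1 and 1 gene not reported here), the 10 genes of widest LGDMEM spread, the 4 highest and 4 lowest of each LGDMEM library and the 5 largest gained and lost without it. Not all are printed, and any other gene was chosen after its values were seen.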

Additional observations from a re-analysis of the deposited data

How the results depend on the processing

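Of the counts of higher and lower genes under each alternative 34 lay within 1.5 times the full fit and 6 did not. With LGDMEM 2 alone 477 genes were higher and 690 lower, with LGDMEM 3 alone 446 and 685, and at an adjusted p of 0.01 there were 536 and 718. DESeq2 called 1160 higher and 1408 lower. A fit to the 6 compared libraries alone, which tested 10666 genes, called 875 higher and 1013 lower. Those 1888 calls left out 478 of the 2321 genes called in the full fit. With a replicate block, although the shared numbers did not pair the libraries, 1092 genes were higher and 1322 lower, and 2259 of the 2321 calls were kept.

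Some log2 fold changes, mostly of genes not called, changed sign. Over the libraries left out in turn they ranged from −0.32 to 0.10 for TRIB3, −0.0902 to 0.398 for VEGFA, −1.16 to 0.025 for CES1, −3.24 to 1.02 for EIF3CL, −1.86 to 2.82 for EEF1A1, −1.13 to 1.33 for IGFBP1, −0.61 to 1.199 for DEPP1, −1.64 to 0.39 for ATP5MGL, −0.79 to 0.54 for H3F3C and −1.70 to 0.15 for CXorf40A. Against LGDMEM 1 alone the values were 3.21 for EEF1A1, 2.56 for IGFBP1, 2.22 for DEPP1, 0.84 for H3F3C, 0.565 for TRIB3, 0.33 for TNS1 and 0.087 for DDIT3. Against LGDMEM 2 alone they were 1.38 for CXorf40A, 1.32 for RPS9, 1.15 for TEKT4P2, 0.78 for ATP5MGL, 0.76 for EIF3CL, 0.68 for IGFBP1, 0.67 for SLC6A12, 0.64 for DEPP1, 0.23 for TMEM191A and −0.17 for VEGFA. Against LGDMEM 3 alone they were 4.46 for CES1, 2.53 for EEF1A1, 1.35 for EIF3CL, 1.21 for IL17RE, 0.30 for H3F3C, 0.073 for ATP5MGL and −0.0046 for VEGFA. With limma voom they were 0.68 for CES1, 0.49 for EEF1A1, 0.48 for DEPP1 and 0.42 for IGFBP1, and the weight per medium gave 0.68, 0.49, 0.48 and 0.42. With a weight per library they were 0.68 for IGFBP1, 0.62 for DEPP1, 0.20 for CXorf40A, 0.19 for ATP5MGL and 0.11 for RPS9. With the replicate block they were 0.90 for EEF1A1, 0.285 for IGFBP1 and 0.27 for DEPP1. The cause of these shifts was not tested. With 3 libraries per medium and 3995365 to 5290642 counts each, small changes and genes of few reads were the least certain.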

Other observations

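Transcripts of the mitochondrial genome made up 12.4% to 13.96% of counts in Plasmax and 10.1% to 12.3% in LGDMEM. Of 13 genes 5 rose, led by ND1, a subunit of complex I, at 5789.6, 7081 and 7529 CPM in Plasmax and 4638, 3976 and 3284 CPM in LGDMEM, a log2 fold change of 0.78 (SE 0.14, adjusted p = 0.000585). Without LGDMEM 1 the number that rose was 8. ND4L fell, and lost the call without LGDMEM 1, Plasmax 1 or Plasmax 3. LGDMEM 1 was the highest and LGDMEM 3 the lowest LGDMEM library in 11 of the 13. Nuclear genes of the respiratory chain had 1 of 36 up and 11 down, and 10 of these 12 kept the call without each LGDMEM library. SDHB, of complex II, was among those that fell, at 44.9, 33.4 and 30.6 CPM against 55.5, 60.9 and 65.9 CPM. Cytosolic ribosomal proteins had 5 of 56 rows up (8.93%), close to the 9.48% of all genes that were higher in Plasmax. The number up was 11 without LGDMEM 3 and 3 without LGDMEM 2, Plasmax 1 or Plasmax 2. Pseudogenes make single members uncertain. Genes of purine and pyrimidine synthesis had 1 of 19 called (3 without LGDMEM 3), or 5.26%, below the 21.2% of all genes. It was MTHFD1, which fell in the full fit. MTHFD1 lost the call without LGDMEM 1 (adjusted p = 0.112), LGDMEM 2 (adjusted p = 0.0999), Plasmax 1 (adjusted p = 0.0576) or Plasmax 3 (adjusted p = 0.108).

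Matrix and mesenchymal genes had 7 of 17 up and 2 down, of which SPARC lost the call without LGDMEM 2. N-cadherin CDH2 was at 272, 281 and 265 CPM in Plasmax and 137, 124 and 148 CPM in LGDMEM, and the laminin chain LAMB1 was at 169, 207 and 187 CPM and 111, 114 and 94.6 CPM, both without overlap. Of 11 measured genes in a list of nuclear RNAs and immediate early genes 4 rose, none fell and 7 were not called. The nuclear RNAs that rose were NEAT1 at 165, 239 and 267 CPM against 29.03, 47.6 and 34.9 CPM (change of 2.58 on the log2 scale, adjusted p = 7.8e-08) and MALAT1 at 81.8, 92.9 and 130.4 CPM against 37.9, 65.9 and 41.2 CPM. The others that rose were the immediate early genes JUN (0.79) and JUNB (1.2), while EGR1 (0.51), ATF3 (0.27) and IER3 (−0.61) were among those not called, and IER3 was called lower without LGDMEM 1 or 3. The list had a median of 1.198 against LGDMEM 1 alone, 0.16 against LGDMEM 2 alone and 0.45 against LGDMEM 3 alone. The summed level of that list was 1411 to 1676 CPM in Plasmax and 1041 to 2190 CPM in LGDMEM, and its part in the other results was not tested. Lysosome and autophagy genes had 6 of 27 up (3 without LGDMEM 1) and 6 down. Heat shock proteins had 3 of 18 up and 4 down, and the number up was 1 without LGDMEM 1, LGDMEM 2 or Plasmax 1 and 0 without Plasmax 3. Urea cycle and amino acid breakdown genes had 2 of 16 up and 3 down. There 0 were up without LGDMEM 1 or Plasmax 3, 1 without LGDMEM 2, Plasmax 1 or Plasmax 2, and 5 were down without LGDMEM 1.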
